A study of Zea mays with 10 samples.

Results

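MIR169 is a conserved plant family of microRNA genes, and 5 of its maize loci, MIR169a, MIR169b, MIR169c, MIR169j and MIR169o, were followed here across prophase I anthers and isolated male germ cells. The members were taken by name, as every feature called zma-MIR169 plus a letter in either prophase I table, and made up 5 of the 49 miRNA loci and of the 25844 features in these tables. The anther table lists all 5 and the germ cell table lists MIR169c, MIR169j and MIR169o. The family was chosen by earlier results of these data, namely the TPM difference between B73 germ cells and B73 anthers, so that difference is described below without a test.

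The series measured RNA in maize to ask which transcripts respond to 21-nt phasiRNAs, small RNAs made in register from long precursors in grass anthers. The groups used are prophase I anthers of B73, prophase I anthers of ms28, prophase I male germ cells of B73 and prophase I male germ cells of ms28, with 2 libraries in each. B73 is the inbred line that supplies the maize reference genome. The ms28 mutant is male-sterile and is known to carry a defect in a gene for an Argonaute, a protein that binds small RNAs. The labels do not say into which line ms28 was bred, so an ms28 difference may hold other differences between lines. Anthers were taken whole and therefore contain germ cells as well as wall cells. Plants grew in a field or a greenhouse, and the labels do not assign libraries to either place or to separate plants, so p-values measure only the spread between these libraries. The premeiotic B73 anthers of the series were not used here.

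An miR169 gene is transcribed by RNA polymerase II into a long primary transcript, from which a hairpin is cut and a short mature miRNA released. Mature miR169 guides the cleavage of mRNAs for NF-YA proteins. NF-YA is the subunit that gives the NF-Y complex its binding to CCAAT boxes, together with NF-YB and NF-YC, and the miR169 and NF-YA pair is known from responses to drought and nitrogen supply. The values here are read from RNA-seq over the precursor loci and do not measure mature miR169. Levels are in TPM, a share of all transcripts in a library that is scaled by transcript length. Comparing loci by TPM rests on the lengths and the read assignment that the authors used, which are not known here. In bulk RNA, fewer cells that make a transcript and less transcript per cell cannot be told apart.

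The RefSeq gene table for Zm-B73-REFERENCE-NAM-5.0, a later assembly than the B73 RefGen_v4 of the study, names 18 MIR169 loci, of which the other 13 were not analysed here. It places every one of the 5 members inside a gene annotated as a long noncoding RNA. For MIR169o this is LOC118476880, for MIR169c LOC115032953, for MIR169j LOC100279619, for MIR169a LOC115029017 and for MIR169b LOC115032960. Of the 43 other miRNA loci of the study that the table matched, 28 overlap such a gene. MIR169c also lies inside a protein-coding gene, LOC103648407, which is so for 1 of the 5 members and an overlap of this kind holds for 3 of the 43 others. The libraries do not mark strand, so reads from MIR169c and from an overlapping transcript of either strand cannot be told apart, and the level of MIR169c is uncertain for that reason. Reads from each of the 5 members and from the long noncoding RNA gene around it cannot be told apart either. The part of such reads in the results was not tested. No coordinates are given because the assemblies differ.

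MIR169o was the most abundant member in whole anthers. It read 84.66 and 38.42 TPM in B73 and 28.55 and 54.02 TPM in ms28, and the groups overlapped. It stood 9th and 11th among the 48 miRNA loci of the anther table in B73, and 13th and 10th in ms28. In germ cells MIR169o read 4.18 and 6.98 TPM in B73 and 19.1 and 10.4 TPM in ms28, with both ms28 libraries above both B73 libraries. By group mean its order was B73 anthers (61.5 ± 32.7 TPM), ms28 anthers (41.3 ± 18.0 TPM), ms28 germ cells (14.7 ± 6.15 TPM) and B73 germ cells (5.58 ± 1.98 TPM; SD, n = 2 each). The neighbours at the top of this order did not differ beyond their spread.

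MIR169c stood higher in germ cells than in anthers of the same genotype. It read 12.4 and 7.06 TPM in B73 germ cells and 5.05 and 3.50 TPM in ms28 germ cells, so both ms28 libraries lay below both B73 libraries. In anthers it read 2.43 and 0.46 TPM in B73 and 0.51 and 0.13 TPM in ms28. B73 anther replicate 1 stood alone at the high end there, and the B73 and ms28 anther groups overlapped. The group means ran from 9.75 ± 3.80 TPM in B73 germ cells through 4.28 ± 1.09 TPM in ms28 germ cells and 1.45 ± 1.39 TPM in B73 anthers to 0.32 ± 0.269 TPM in ms28 anthers (SD, n = 2 each).

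MIR169j was low in both tissues. In germ cells it read 3.57 and 2.82 TPM in B73 and 1.47 and 3.56 TPM in ms28. In anthers it read 0.93 and 0.66 TPM in B73 and 0.61 and 0.70 TPM in ms28. All 4 germ cell libraries lay above all 4 anther libraries, an order that 26.7% of tested features shared and that includes the B73 difference by which the family was chosen. In neither tissue were the genotypes separate.

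**Figure D1:**
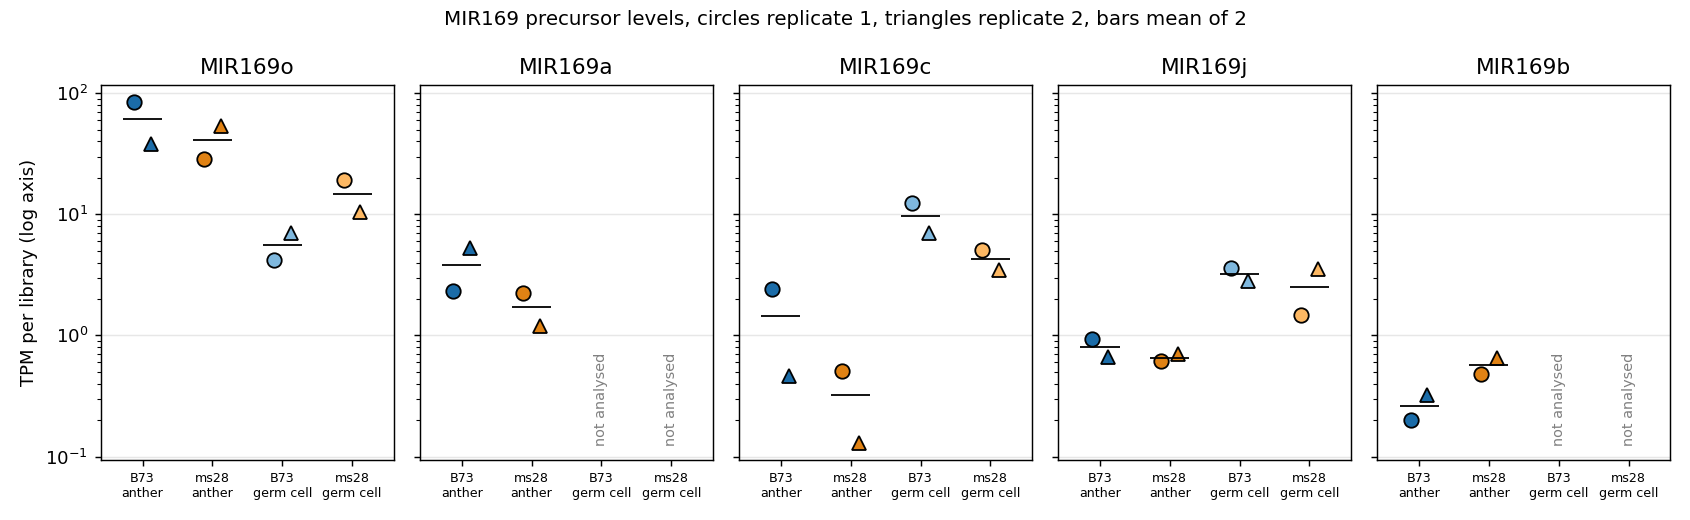
TPM per library on a log axis for the 5 MIR169 loci in the 4 prophase I groups; circles are replicate 1, triangles replicate 2 and bars the mean of 2. MIR169o is highest in anthers, at 28.55 to 84.66 TPM, while MIR169c and MIR169j are highest in germ cells, and MIR169a and MIR169b were not analysed in germ cells.

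The remaining members were followed in anthers only. MIR169a read 2.31 and 5.28 TPM in B73 and 2.25 and 1.19 TPM in ms28, so the ms28 libraries lay just below the B73 ones, as they did for 68.3% of the features tested in the anther table. MIR169b was the least abundant locus of the family in B73 anthers, at 0.20 and 0.32 TPM, and read 0.48 and 0.65 TPM in ms28. In ms28 anthers MIR169c had the lower mean, 0.32 against 0.565 TPM. MIR169b ranked 48th of 48 miRNA loci in B73 anther replicate 1, and MIR169c did so in ms28 anther replicate 2. Both ms28 libraries were above both B73 libraries for MIR169b. That order held for 3.63% of the features tested in the anther table, a set without MIR169b, so this share does not rate its order. MIR169b never reached 1 TPM, so it did not pass the filter of 1 TPM in at least 2 libraries and was not tested. In all, 23 miRNA loci are listed for anthers alone. Their mean over the 4 anther libraries ran from 0.413 to 25.9 TPM, and 4 of them exceeded the mean of MIR169a, 2.76 TPM. The germ cell table also lists values of 0, so its lack of values for MIR169a and MIR169b is not read as a level of 0.

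The makeup of the summed TPM of MIR169c, MIR169j and MIR169o differed between anther and germ cell libraries. It was much the same in B73 and ms28 anthers. MIR169a and MIR169b are left out for lack of germ cell values. In anthers the mean of MIR169a, 3.795 TPM in B73 and 1.72 TPM in ms28, exceeded those of MIR169c and MIR169j. The shares of the 3 loci are a description and were not tested. They include the B73 tissue difference by which the family was chosen. The genotype changes of MIR169o and MIR169c in germ cells were not called in the fit of all 8 libraries given below. Over the 3 loci measured in both tissues, MIR169o held 96.2 and 97.2% of the summed TPM in B73 anthers and 96.2 and 98.5% in ms28 anthers. In B73 germ cells it held 20.7 and 41.4%, and MIR169c held 61.6 and 41.9%. In ms28 germ cells MIR169o held 74.5 and 59.5% and MIR169c 19.7 and 20.1%. MIR169j took 17.7 and 16.7% in B73 germ cells and 5.76 and 20.4% in ms28 germ cells, against 1.06 to 2.06% in the 4 anther libraries. Of these 3 loci, MIR169c thus led in both B73 germ cell libraries, by a small margin in replicate 2, and MIR169o in the other 6 libraries.

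The summed level of the 3 loci in germ cells did not separate the genotypes. It was 20.2 and 16.9 TPM in B73 germ cells and 25.6 and 17.4 TPM in ms28 germ cells, and these ranges overlapped. In anthers it was 88.0 and 39.5 TPM in B73 and 29.7 and 54.9 TPM in ms28, again with overlap. With MIR169a and MIR169b added, the anther sums were 90.5 and 45.1 TPM in B73 and 32.4 and 56.7 TPM in ms28.

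**Figure D2:**
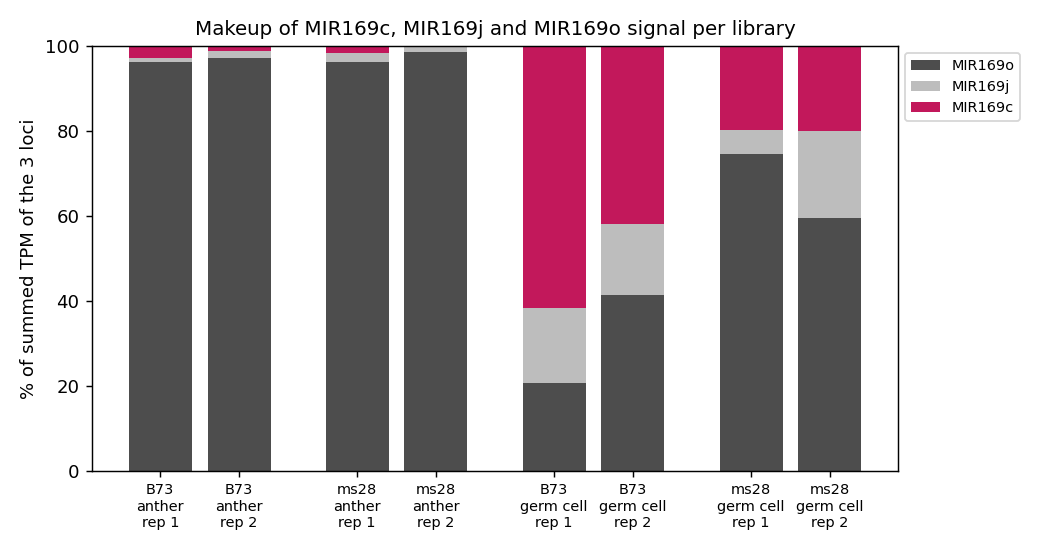
Percent of the summed TPM of MIR169o, MIR169j and MIR169c that each locus held, 1 stacked bar per library. MIR169o holds over 96% in every anther library, 20.7 and 41.4% in B73 germ cells and 74.5 and 59.5% in ms28 germ cells.

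Isolated germ cells of ms28 were compared with those of B73 first. MIR169o stood 2.64-fold higher and MIR169c 2.28-fold lower in ms28 by mean TPM, and neither passed the test over all features. One limma model of log2(TPM + 1) was fitted to all 8 libraries, over the 20892 features that reached 1 TPM in 2 libraries or more. A feature is called at a Benjamini-Hochberg adjusted p under 0.05, and 14.3% of all tested features were called in this comparison. Of the 3 MIR169 loci tested, limma called 0, and 2 had an unadjusted p under 0.05. The 14.3% is for adjusted p. The share of all features at the unadjusted cut was not counted, so the 2 are not rated. The log2 change on that scale was 1.23 for MIR169o (SE 0.47, 95% interval 0.16 to 2.31, adjusted p = 0.108). It was -0.996 for MIR169c (SE 0.43, 95% interval -1.98 to -0.01, adjusted p = 0.143) and -0.32 for MIR169j (SE 0.30, 95% interval -0.999 to 0.37, adjusted p = 0.490). The median change of all tested features was 0.07 and that of the 22 other miRNA loci 0.11, with 12 above 0 and 10 below, 2 called higher and 0 called lower.

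The order of the libraries was complete for both loci. An order with both ms28 germ cell libraries above both B73 ones held for 37.2% of tested features, and one with both below for 28%, so this order is common in these data. The change of MIR169o lay at the 95.2th percentile of all tested features and that of MIR169c at the 5.45th. Ranked within each library among all 22786 features of the germ cell table, MIR169o stood at percentiles 44.0 and 51.0 in B73 and 70.0 and 58.4 in ms28. MIR169c stood at 62.9 and 51.3 in B73 and 44.2 and 37.3 in ms28. In a limma fit of the germ cell table alone, which called 21.6% of its features, MIR169o was called (adjusted p = 0.0368) and MIR169c was not (adjusted p = 0.0547).

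The ratio of MIR169o to MIR169c within a library does not depend on how libraries are scaled. It was 0.336 and 0.988 in B73 germ cells and 3.77 and 2.96 in ms28 germ cells. On average the ratio was 5.80-fold higher in ms28 (geometric mean, n = 2 per group), with the groups apart. In the two-sided exact permutation test this gave p = 0.333, the smallest value that 2 libraries against 2 allow. The test could therefore call no difference of any size. This ratio joins the changes of MIR169o and MIR169c, neither of which was called in the fit of all 8 libraries. It sets a member that was higher in ms28 germ cells against one that was lower, so its size follows from that choice. In germ cells the ratio of MIR169c to MIR169j was 0.62-fold in ms28 relative to B73 (exact permutation p = 0.667). That of MIR169o to MIR169j was 1.17 and 2.47 in B73 and 12.9 and 2.91 in ms28. In anthers the ratio of MIR169o to MIR169c was 34.8 and 83.5 in B73 and 56.0 and 416 in ms28, with overlap (exact permutation p = 0.667). The ratios with MIR169c carry its overlap with a protein-coding gene described above.

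The second comparison asks the same in whole anthers. None of the members could be separated between the genotypes by the test. Limma called 0 of the 3 loci over both tables, and 7.82% of all tested features were called. At an unadjusted p under 0.05 there were 0 of the 3, with no share of all features counted at that cut. MIR169c and MIR169j entered this test only through their germ cell values, since in anthers neither reached 1 TPM in 2 libraries. The log2 change was -0.78 for MIR169c (SE 0.43, 95% interval -1.76 to 0.21, adjusted p = 0.199). It was -0.53 for MIR169o (SE 0.47, 95% interval -1.60 to 0.55, adjusted p = 0.390) and -0.11 for MIR169j (SE 0.30, 95% interval -0.80 to 0.57, adjusted p = 0.769). MIR169a, fitted within the anther table, had a log2 change of -0.77 (SE 0.40, adjusted p = 0.211), where 0.32% of features were called. Leaving out 1 B73 library changed this to -1.24 (replicate 1 omitted) or -0.31 (replicate 2 omitted), and omitting the second ms28 library changed it to -0.49, with an adjusted p from 0.246 to 0.529. All tested features had a median of -0.48 in this comparison. After centring of every library on its own median feature, MIR169o stood at 0.08, MIR169j at 0.49, MIR169c at -0.17 and MIR169a at -0.17. The 22 other miRNA loci had a median of -0.33, with 2 called higher and 2 called lower. The values of MIR169c and MIR169o turned on single anther libraries. Without B73 anther replicate 1 the log2 change of MIR169c was -0.16 (adjusted p = 0.800), and without replicate 2 it was -1.39 and called (adjusted p = 0.0390), in a fit that called 20.6% of all features. MIR169o ran from -1.09 without B73 anther replicate 2 to 0.03 without replicate 1, not called in either.

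A difference of the ms28 effect between the tissues was tested as an interaction. For MIR169o the effect in germ cells exceeded that in anthers by 1.76 on the log2 scale (SE 0.66, 95% interval 0.24 to 3.28, unadjusted p = 0.0284 in the limma fit), which missed the threshold (adjusted p = 0.102). The median of all tested features was 0.56 in the same direction, and the centred value of MIR169o was 1.06. MIR169c and MIR169j had differences of -0.22 and -0.20 (SE 0.61 and 0.42, adjusted p = 0.816 and 0.754). Limma thus called 0 of 3 loci, against 14.4% of all tested features called. The 1 locus at an unadjusted p under 0.05 is not rated by that share, since features at the unadjusted cut were not counted. Leaving out 1 library moved the value of MIR169o between 1.20 without B73 anther replicate 1 (adjusted p = 0.224) and 2.32 without B73 anther replicate 2. The latter was called (adjusted p = 0.0331), in a fit that called 21.7% of all features.

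**Figure D3:**
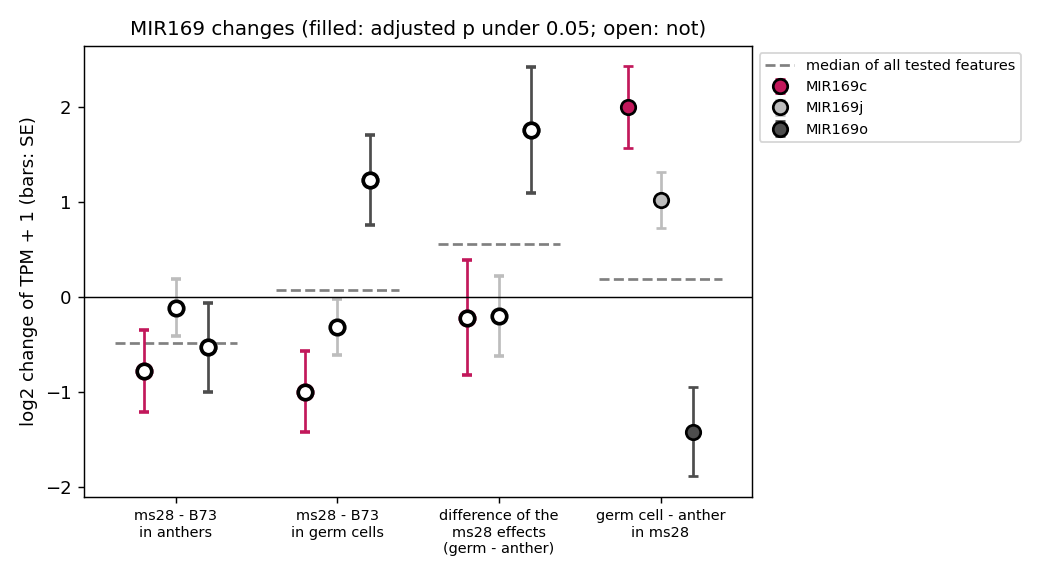
Log2 change of TPM + 1 with its SE for MIR169c, MIR169j and MIR169o in 4 comparisons of the 8-library limma fit; filled points have an adjusted p under 0.05 and dashed lines mark the median of all tested features. In germ cells MIR169o stands at 1.23 and MIR169c at -0.996, both open, while all 3 loci are filled in the tissue comparison within ms28.

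The third comparison sets germ cells against whole anthers within ms28, whose libraries took no part in the B73 difference that drew attention to the family. MIR169c was 13.4-fold and MIR169j 3.84-fold higher in germ cells, and MIR169o was 2.81-fold lower, by mean TPM. MIR169c reached 1 TPM in 1 of the 4 anther libraries and MIR169j in 0, against all 4 germ cell libraries for each, so both passed the filter through the tissue where they are high and their calls are not independent of that filter. MIR169o reached 1 TPM in all 8 libraries. The 3 loci were called, beside 56.6% of all tested features (35.2% higher and 21.5% lower in germ cells), so being called is common here. Germ cells lay above anthers in both libraries for 47.6% of tested features and below for 34.3%. The log2 change was 2.00 for MIR169c (SE 0.43, adjusted p = 0.0044), 1.02 for MIR169j (SE 0.30, adjusted p = 0.0183) and -1.42 for MIR169o (SE 0.47, adjusted p = 0.0306) in limma. With no filter on low values the adjusted p in limma was 0.0052, 0.0188 and 0.0345. That fit still took only features listed for both tissues, so a locus had to be listed for germ cells to enter it. The anther and germ cell values come from tables that the authors filtered apart, which leaves a tissue difference and a table difference mixed: they cannot be told apart.

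The calls of MIR169o and MIR169j did not hold without each library. MIR169o was no longer called without ms28 anther replicate 2 (log2 -0.97, adjusted p = 0.180) or ms28 germ cell replicate 2 (-1.01, adjusted p = 0.193). MIR169j was no longer called without ms28 anther replicate 1 or 2 (adjusted p = 0.0769 and 0.0594), although its log2 change, 0.98 and 1.06, was close to the full value. Without ms28 germ cell replicate 2 the change itself was smaller (0.58, adjusted p = 0.116), as it was after centring (0.75, adjusted p = 0.0585). For MIR169c the log2 change ran from 1.72 to 3.52 over the 17 alternatives. It entered through germ cells, as given above, and many alternatives could not move its estimate from 2.00, so this range is no separate support. The 3.52 came with the pseudocount of 0.1, on ms28 anther values of 0.51 and 0.13 TPM.

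The B73 tissue differences are given as a description. By mean TPM MIR169c was 6.75-fold and MIR169j 4.02-fold higher in B73 germ cells than in B73 anthers, and MIR169o was 11.03-fold lower. On the log2(TPM + 1) scale these were 2.22, 1.22 and -3.18, beside 2.00, 1.02 and -1.42 in ms28. Of all tested features, 68.2% were called in the B73 comparison.

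Among the 25 miRNA loci tested, MIR169c and MIR169j had the highest germ cell minus anther differences in B73, at ranks 1 and 2, and held the same ranks in ms28. Their B73 ranks rest on the difference by which the family was chosen. In both genotypes the ranking holds these loci because they passed the filter through germ cells. It leaves out the 23 miRNA loci listed for anthers alone, so the ranks are a description. MIR169o was 22nd in B73 and 12th in ms28. The 22 loci outside the family had a median difference of -2.12 in B73, with 1 above 0, and of -1.55 in ms28, with 5 above 0. In ms28, 1 of these 22 was called higher in germ cells and 14 lower. The 1 called higher was MIR167d (log2 0.83, adjusted p = 0.0122 in limma), whose mature miRNA targets mRNAs of auxin response factors. It is named because of this value.

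**Figure D4:**
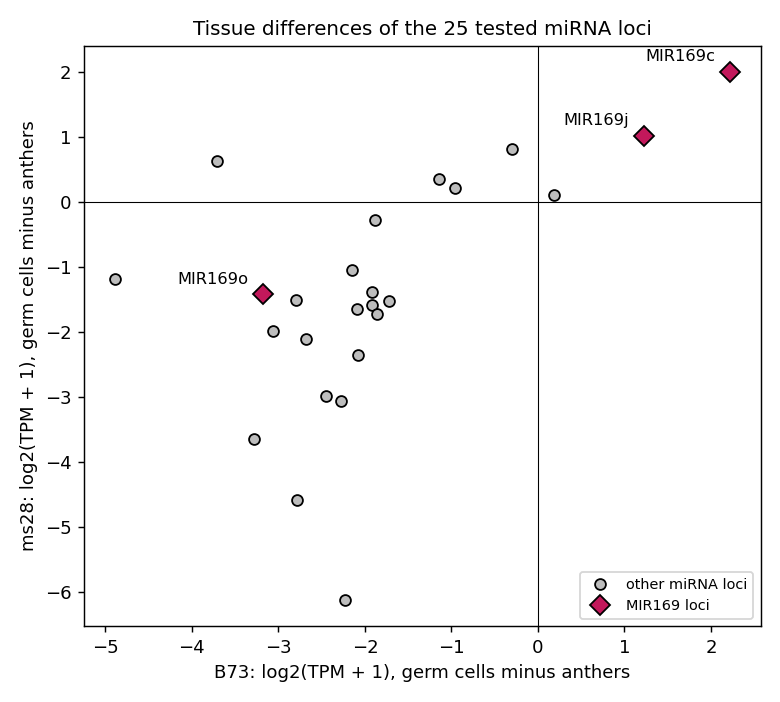
Difference of log2(TPM + 1), germ cells minus anthers, in B73 (x axis) and ms28 (y axis) for the 25 tested miRNA loci, with 1 point per locus. MIR169c (2.22 and 2.00) and MIR169j (1.22 and 1.02) lie at the upper right, and MIR169o (-3.18 and -1.42) lies among the loci that are lower in germ cells of both genotypes.

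Only MIR169o reached a mean of 10 TPM in a group, the level asked for before looking for loci of like pattern. Of the 22 miRNA loci outside the family, MIR167g and MIR159b followed it most closely over the 8 libraries, with Pearson correlations of log2(TPM + 1) of 0.954 and 0.949. MIR167g belongs to the same auxin-related family as MIR167d, and MIR159b to one that targets GAMYB transcription factors. MIR167g read from 17.72 to 37.02 TPM in anthers and from 1.85 to 5.67 TPM in germ cells. The correlation within the 4 anther libraries was 0.728 for MIR167g and 0.927 for MIR159b, and within the 4 germ cell libraries 0.892 and 0.783. These points share libraries and the split between tissues, and the values of MIR159b may include reads shared with near-identical copies of its family.

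The NF-YA targets and the other subunits could not be set beside the miRNA loci. Of the NF-Y subunit list, 15 genes are named in the RefSeq table and 0 could be paired with the study's gene models, since the table matched 0 of the 43789 gene model IDs. The same held for the meiocyte, tapetum and anther wall markers (0 of 13), so the tissue labels were not checked against markers.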

How the data were processed

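RNA-seq libraries were made with a Smart-seq type method and tagmentation, per the labels' protocols. The submitters' processing notes name, without roles, the build B73 RefGen_v4 and the tools HISAT2 2.2.1, featureCounts 2.0.1, Trimmomatic 0.33, DESeq2 and Cufflinks. No header names the unit. The deposited values were read as TPM made by the authors, because each column sums to 99.1 to 99.4% of 1000000. That sum alone does not show that values were scaled by transcript length. TPM keeps no depth, so depth is unknown and no counting interval is given. Columns were matched through the header lines (WT read as B73) and the tables' names.

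Values of log2(TPM + 1) were tested with limma 3.58.1 (R 4.3.3, variance trend), each group having its own mean. The replicate number was left out of the model. The pseudocount of 1 understates changes of low loci. Loci of like pattern were the 2 miRNA loci outside the family with the highest correlation. The script was tested on simulated data. Changes were planted only in features with a higher B73 anther level than MIR169a, MIR169b, MIR169c and MIR169j, so loci as low as these were not covered. Tables and figures used Python 3.11.15, pandas 2.3.3, scipy 1.17.1 and matplotlib 3.10.9. The members, lists and alternatives were chosen with earlier results of these data known. Alternatives were another pseudocount, other filters, centring, quantile normalization, smaller fits, a replicate block, a stricter threshold and leaving out each library.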

Additional observations from a re-analysis of the deposited data

How the results depend on the processing

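In germ cells against anthers within ms28, 3 MIR169 loci were called, and the count was 1 at an adjusted p under 0.01 and 1 to 3 when single libraries were left out. In ms28 against B73 germ cells the count of 0 became 1 (MIR169o) with only the germ cell libraries in the fit, and stayed 0 when single libraries were left out. For ms28 against B73 anthers, and for the difference of the ms28 effects, the count of 0 ran from 0 to 1 with 1 library left out. The call came without B73 anther replicate 2 (MIR169c and MIR169o). For MIR169a, within the anther table, the count was 0 under all 7 alternatives. A fit with only the libraries of the comparison was not run for the difference of effects, which needs all 8. In ms28 against B73 germ cells the log2 change ran from -1.36 to -0.63 for MIR169c and from 0.82 to 1.64 for MIR169o over 17 alternatives. Filters, block, threshold, the smaller fit and leaving out an anther library could not move these estimates. Leaving out a germ cell library could not turn their sign, since the genotypes did not overlap. The kept sign is therefore no support, and only the pseudocount and the scaling could have changed it. In anthers MIR169o kept its sign in 14 of 17 and MIR169j in 13 of 16, none called. With the replicate block the counts were 0 for ms28 in anthers, 0 in germ cells, 0 for the difference and 3 for the tissues in ms28, and the block changed no call. For MIR169c in ms28 against B73 germ cells the block lowered the SE from 0.43 to 0.27. Its adjusted p in limma went from 0.143 to 0.0582, while the SE of MIR169j and MIR169o rose slightly. Correlations of same-numbered deviations over all tested features ran from -0.08 to 0.14. The labels do not say whether a replicate number pairs libraries, and these correlations cannot settle it. The pseudocount of 0.1 together with centring was added after the results were seen and left the counts at 0, 0, 0 and 3. With 2 libraries per group and no depth, differences near 1 TPM are weakly resolved.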
